A study of Mus musculus with 18 samples.

Results

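The 26S proteasome is the protease that degrades proteins tagged with ubiquitin, and the genes described here encode its subunits and the enzymes that attach or remove the tag. Members were all probe sets of both chip types whose platform annotation gave a single gene symbol starting with Psma, Psmb, Psmc, Psmd, Psme, Ube2, Uba or Usp. The names chose the members, and no measured value did. They came to 92 of 13179 probe sets for 71 genes, with 72 probe sets on the chip type called A here and 20 on the chip type called B. Of these, 77 probe sets for 60 genes passed the filter on low values, which asked for at least the detection limit on 2 of the 9 arrays of the chip type. 2 of the genes, Psmc3ip and Psme3ip1, share only the start of the name and encode no proteasome subunit.

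As background, the 20S core is a barrel of an alpha ring, which gates the entrance, and beta rings, which hold the cutting sites. The 19S cap docks on the alpha ring, recognises ubiquitin and unfolds the substrate through a ring of ATPases, and other caps such as PA28 can take its place. Ubiquitin passes from an E1 activating enzyme to E2 conjugating enzymes and, through ligases, to the substrate, and ubiquitin-specific proteases (Usp) take it off again. After interferon the catalytic subunits Psmb8, Psmb9 and Psmb10 replace Psmb5, Psmb6 and Psmb7 and form the immunoproteasome, which makes peptides for MHC class I, and macrophages and dendritic cells carry it without stimulation. In the ovary, ubiquitin-dependent degradation is known for its part in oocyte meiosis and follicle growth.

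RNA of whole mouse ovaries had been hybridised to 2 Affymetrix chip types, with 1 array of each type for each of 9 conditions and 18 arrays in all. The transgenic conditions were ovaries of LHCTP mice, which secrete too much luteinizing hormone: cystic ovaries of 2-month CF-1 mice and of 2-month CF-1xC57BL/6 F1 hybrids, a granulosa cell tumour of 5-month CF-1 mice, a luteoma of 5-month hybrids, and ovaries of 5-month CF-1 transgenic mice treated with hCG, a hormone that acts on the same receptor, which are labelled luteoma too. Wild-type ovaries of CF-1 and hybrid mice at 2 and at 5 months were the controls, and all mice carried either the CF-1 or the hybrid background. For the tumour array of chip B one label gives 2 months and the title and source 5 months, and the title was followed. The labels name neither the promoter of the transgene, the dose of hCG, the number of animals nor any pooling, so that p-values here measure the spread between conditions and not between animals of 1 condition.

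Before scaling, trimmed mean intensities ran from 907 to 1756 units on the arrays of chip A and from 542 to 921 units on those of chip B. The detection limit, set on scaled values, was reached by 54.5% to 57.9% of probe sets per array on chip A and by 28.0% to 29.6% on chip B. Levels are intensities scaled to a common trimmed mean within chip type, in units, and can be compared only within a probe set. Sums over a gene list add different probe sets and are weighted to the brightest. Values are given for transgenic arrays in the order CF-1 cystic, hybrid cystic, CF-1 tumour and hybrid luteoma, and for wild-type arrays in the order CF-1 2 months, hybrid 2 months, CF-1 5 months and hybrid 5 months. Summed levels of 9 granulosa genes ran from 35290 units in the hybrid luteoma to 75997 units in the CF-1 tumour, and those of 6 oocyte genes from 2081 units in the CF-1 tumour to 9592 units in the CF-1 wild-type ovary of 2 months. The CF-1 tumour, hybrid luteoma and CF-1 wild-type arrays of 5 months stood apart in their 15 opposite-strand control probe sets, which correlated between these arrays at 0.976 to 0.988 (chip A) or 0.951 to 0.970 (chip B), against 0.544 to 0.927 (chip A) or 0.592 to 0.885 (chip B) for all other pairs of arrays. In bulk ovaries fewer cells of a type and less RNA per cell cannot be told apart.

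The immunoproteasome subunits were highest in 1 wild-type ovary, that of CF-1 mice at 5 months, on all 4 of their tested probe sets. Psmb8, the chymotrypsin-like subunit LMP7, read 808, 991, 1217 and 1186 units in the transgenic arrays on chip A, against 1123, 1059, 2019 and 1058 units in the wild-type arrays, and 873 units after hCG. Its chip B probe set gave 555, 675, 954 and 1056 units in the transgenic arrays, against 1195, 768, 1663 and 985 units in the wild-type arrays, and 991 units after hCG. On both chips the CF-1 wild-type ovary of 5 months stood above every other array, and the other 8 arrays overlapped between genotypes. Psmb9, the caspase-like-site replacement LMP2, read 701, 743, 1029.8 and 1159.96 units in the transgenic arrays, against 754, 822, 1485 and 726 units in the wild-type arrays, and 772 units after hCG. Here the hybrid luteoma and the CF-1 tumour came next to the CF-1 wild-type ovary of 5 months. These are the arrays that share the control profile, and they were also the highest for Psmb8 on chip A. Psmb8 on chip B and Psmb10 did not have this order. The second Psmb9 probe set, on chip A, lay under the floor on 7 of 9 arrays and was not tested. Psmb10, the trypsin-like-site replacement MECL-1, read 1036, 473, 909.6 and 1109.9 units in the transgenic arrays, against 1091, 1105, 1369.98 and 452 units in the wild-type arrays, and 715 units after hCG. Its low arrays were the hybrid cystic ovary and the hybrid wild-type ovary of 5 months, while the lowest array of Psmb8 on both chips and of Psmb9 was the CF-1 cystic ovary.

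**Figure D1:**
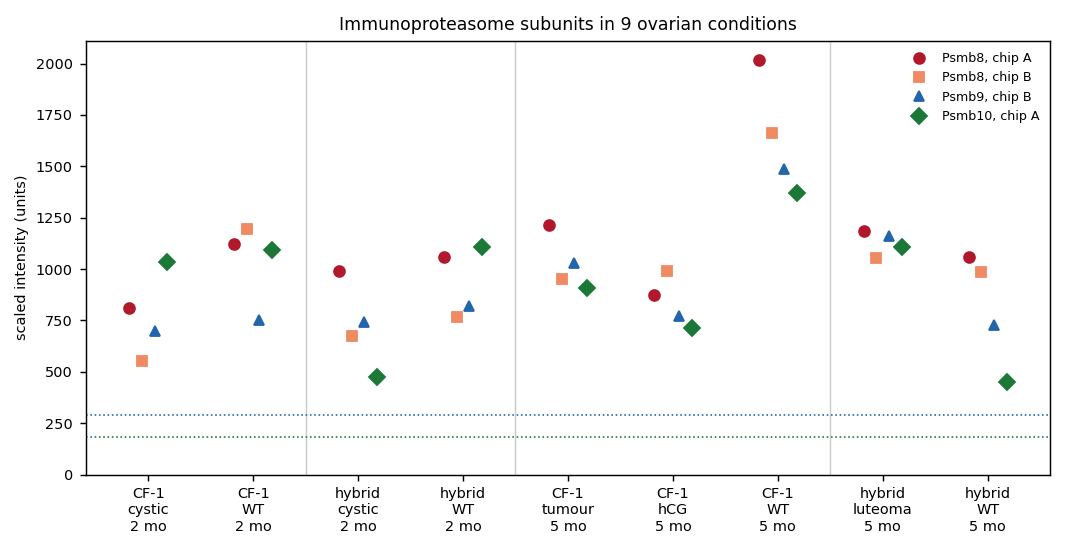
Scaled intensity (units) of 4 probe sets of the immunoproteasome genes Psmb8, Psmb9 and Psmb10 on each of 9 arrays per chip type, with transgenic arrays left of their wild types and dotted lines at the floors of 184 units (chip A) and 291 units (chip B). Every probe set is highest in the CF-1 wild-type ovary of 5 months, at 1370 to 2019 units.

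The 3 genes were not called for genotype, age or strain. For Psmb8 the log2 difference was −0.28 ± 0.22 (SE) with an adjusted p of 0.739 in limma on chip A and −0.50 ± 0.23 (SE) with an adjusted p of 0.542 on chip B, transgenic minus wild type. Psmb9 had a genotype difference of −0.03 ± 0.24 (SE) (limma adjusted p = 0.991), and that of Psmb10 was −0.15 ± 0.37 (SE) (limma adjusted p = 0.926). These sizes depended on single arrays. Without the hybrid wild-type arrays of 5 months Psmb8 differed by −0.47 on chip A and −0.66 on chip B (unadjusted p = 0.0483 and 0.0213, adjusted p = 0.632 and 0.531 in limma), and Psmb10 by −0.52. Without the CF-1 wild-type arrays of 5 months the Psmb8 differences were −0.10 and −0.41, and without either hybrid array of 2 months Psmb10 turned sign, to 0.11 or 0.13. Leaving out 1 array at a time gave −0.27 to 0.17 for Psmb9. The age differences, 5 months minus 2 months, were 0.57 ± 0.23 (SE) (limma adjusted p = 0.239) for Psmb8 on chip B and 0.50 ± 0.24 (SE) (limma adjusted p = 0.291) for Psmb9. With a term for the control profile, which leaves age to the hybrid wild-type array of 5 months, these differences were 0.07 and −0.23. The term also took Psmb8 on chip A to −0.13, against 0.42 without it, and Psmb10 to −1.10 (unadjusted p = 0.0602, adjusted p = 0.952 in limma), against 0.02, so that the sign held only for Psmb8 on chip B. In single pairs the medians over the 3 genes were −0.11 and −0.15 on the log2 scale in the CF-1 and hybrid cystic ovaries, −0.59 in the CF-1 tumour, 0.68 in the hybrid luteoma and −0.94 after hCG, each minus its wild type of the same age and strain. All 3 genes were lower in 4 of the 5 pairs and higher in the luteoma pair, and these medians kept their sign with quantile or median scaling and with the floor halved or doubled. The tumour and hCG pairs share the CF-1 wild-type arrays of 5 months, in which all 3 genes were highest, so both signs follow from that peak. In the luteoma pair only the luteoma carries the control profile, and in the hCG pair only the wild type does. Condition and profile cannot be told apart in these pairs. The hCG-treated arrays had a GAPDH 3′ over 5′ ratio, a measure of RNA quality, of 1.35 on chip A and 1.297 on chip B, against 0.782 to 0.985 and 0.871 to 1.05 on the other 8 arrays, and its part in the values after hCG was not tested.

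Other genes were highest in the same array. The 14 tested genes of a macrophage and MHC class II list summed to 39086, 39696, 47098 and 70735 units in the transgenic arrays, against 36588, 42578, 104599 and 44842 units in the wild-type arrays, and 58593 units after hCG. In 13 of these 14 genes the CF-1 wild-type ovary of 5 months was the highest array, among them Ctss, a lysosomal protease, at 9627 units, and Lyz2, macrophage lysozyme, at 33432 units. None of the 14 was at 0 in that array. H2-Ab1, a class II chain, was below 0 in the CF-1 tumour and 5179 units in the CF-1 wild-type ovary of 5 months. For 16 tested interferon and class I genes the summed level was 64126, 63875, 79635 and 68391 units in the transgenic arrays, against 66042, 55854, 95051 and 56538 units in the wild-type arrays, and 72059.9 units after hCG. As a mean of log2 values the CF-1 wild-type ovary of 5 months was highest too, at 11.46. The luteoma, at 10.91, then lay below the CF-1 cystic ovary, at 11.01, unlike in the sums. The CF-1 wild-type ovary of 5 months was the highest array for 9 of these 16, with H2-D1, a class I heavy chain, at 19304 units against 5490 to 14121 units on the other 8 arrays. Mx2, Ifi47 and Gbp2, which interferon induces, were among the 9, at 919.8, 851.6 and 2239 units, while Irf1, Irf7, Irf8 and Ifit3 were not. For some of the 9 the lead was small. Gbp2 read 2219 units after hCG and 2187 units in the CF-1 cystic ovary, and Ifi47 817 units in the CF-1 wild-type ovary of 2 months. B2m read 16354 units, against 16324 units after hCG. Irf1 was highest in the hybrid wild-type ovary of 5 months, at 2696 units against 2426 units. Of the listed genes Tap1, Irf9, Isg15, Ifit1, Ifit2, Gbp3, Mx1, Igtp, Irgm1 and Iigp1 did not pass the filter on low values. Igtp and Iigp1 were highest in the CF-1 wild-type ovary of 5 months, at 629 and 612 units. The rest of these untested genes were highest in other arrays. The part of macrophages or interferon in the immunoproteasome levels was not tested.

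Promoter windows were searched because the 3 immunoproteasome genes peaked in the same array. RefSeq windows of 250 bases before to 50 after the gene start (GRCm38.p6) matched 54 of the 71 genes, with 62 windows. The windows of the 3 genes and of Psme1, which encodes the interferon-inducible PA28 alpha, are shown 5′ to 3′ on the gene's strand. Capitals mark the gamma-interferon activation site core TTCNNNGAA or the interferon-stimulated response element core, GAAA, any pair of bases and GAAA, on either strand, and both were searched on both strands.
Psmb8 (chr17:34197945-34198244, plus strand): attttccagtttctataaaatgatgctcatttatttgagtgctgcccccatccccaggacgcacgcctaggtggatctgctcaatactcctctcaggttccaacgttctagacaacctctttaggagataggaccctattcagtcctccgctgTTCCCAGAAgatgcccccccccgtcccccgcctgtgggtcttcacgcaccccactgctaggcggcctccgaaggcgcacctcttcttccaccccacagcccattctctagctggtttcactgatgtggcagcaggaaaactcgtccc
Psmb9 (chr17:34187281-34187580, minus strand): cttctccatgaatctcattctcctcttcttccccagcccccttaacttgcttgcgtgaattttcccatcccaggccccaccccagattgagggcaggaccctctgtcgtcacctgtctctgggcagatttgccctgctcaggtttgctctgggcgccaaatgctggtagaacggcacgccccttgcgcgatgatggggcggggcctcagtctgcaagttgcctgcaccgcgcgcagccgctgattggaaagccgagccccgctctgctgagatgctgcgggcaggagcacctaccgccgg
Psmb10 (chr8:105938343-105938642, minus strand): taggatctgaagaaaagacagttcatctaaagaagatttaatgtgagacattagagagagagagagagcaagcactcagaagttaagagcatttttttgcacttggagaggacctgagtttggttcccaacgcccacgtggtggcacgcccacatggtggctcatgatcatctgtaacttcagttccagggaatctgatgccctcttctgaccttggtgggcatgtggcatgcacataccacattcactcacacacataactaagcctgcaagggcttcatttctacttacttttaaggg
Psme1 (chr14:55578244-55578543, plus strand): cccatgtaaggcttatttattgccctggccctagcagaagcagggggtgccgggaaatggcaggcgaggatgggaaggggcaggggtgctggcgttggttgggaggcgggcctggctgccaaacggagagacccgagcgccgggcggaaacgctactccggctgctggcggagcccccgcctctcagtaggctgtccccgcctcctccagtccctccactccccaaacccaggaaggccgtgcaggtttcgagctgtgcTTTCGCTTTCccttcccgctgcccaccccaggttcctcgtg
The Psmb8 window held 1 activation site core, found in 6.45% of member windows and 8.30% of all 32851 windows. The other member genes with this core were Psmd2, Ube2d3 and Usp17la. Psme1 had 1 response element core, at position 9 after the gene start, found in 6.45% of member windows and 3.44% of all windows. The other member genes with it were the constitutive Psmb3, Psmd4 and Psmd9. Neither core was in the Psmb9 and Psmb10 windows. The NF-kappaB core, GGGA, any base and TTTCC, was in none of the 62 member windows and in 0.411% of all windows. For the antioxidant response element core TGACNNNGC, which NRF factors bind, the shares were 12.9% of member windows and 12.4% of all windows, with Psmb6 as the one hit among 9 constitutive 20S genes and Psmc6, Psmd9 and Psmd12 among 15 genes of the 19S cap. The CCAAT box was in 35.5% of member windows and 37.4% of all windows. A match is a description of the letters only.

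The constitutive 20S core read higher in the CF-1 tumour than in the CF-1 wild-type ovary of the same age for nearly all of its genes. Of its 12 genes, each at its brightest probe set, 11 were higher and 1 was lower in the tumour, with a median log2 difference of 0.30 (range −0.15 to 0.56), and the scaling and floor alternatives gave 0.30 to 0.31. Over all 6408 tested probe sets the median of this pair was 0.01, with 3277 higher and 2986 lower. The same 12 genes had medians of −0.17 in the CF-1 cystic pair (2 higher), −0.06 in the hybrid cystic pair (4 higher), −0.00 in the hybrid luteoma pair (6 higher) and 0.29 in the hCG pair (7 higher). The luteoma median took the other sign, 0.06, with median scaling. Each pair is 1 array against 1, so these differences have no replicate check. Compared with each gene's own mean over the 9 arrays, the 20S median was 0.07 in the tumour and −0.08 in the CF-1 wild-type ovary of 5 months.

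**Figure D2:**
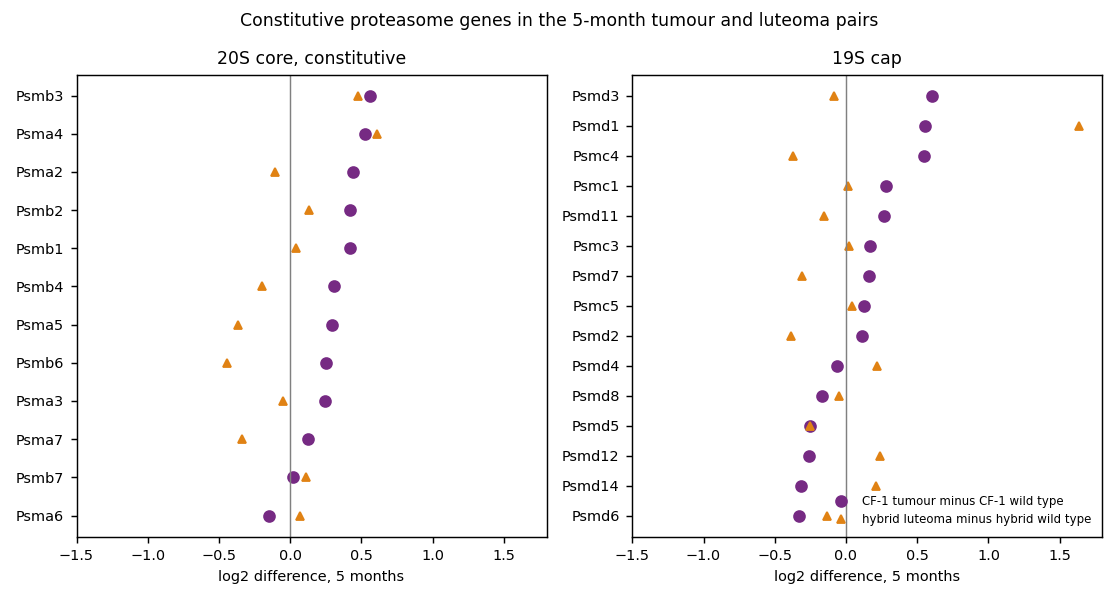
Log2 differences of 12 constitutive 20S genes (left) and 15 genes of the 19S cap (right) between the CF-1 tumour and CF-1 wild type (circles) and between the hybrid luteoma and hybrid wild type (triangles), all at 5 months, 1 array each. In the tumour pair 11 of 12 genes of the core lie right of 0, and 9 of 15 genes of the cap.

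Among alpha ring subunits Psma4 had the widest spread. It read 7626, 6281, 12734 and 12145 units in the transgenic arrays, against 6037, 7126, 8854 and 7948 units in the wild-type arrays. The tumour and the luteoma were its highest arrays, and hCG-treated ovaries its lowest at 3097 units. A second Psma4 probe set read 1685, 1936, 1926 and 1837 units in the transgenic arrays, 1895, 1774, 1548 and 2275 units in the wild-type arrays and 2144 units after hCG. That second probe set was not low after hCG, so the level of the first there rests on 1 of 2 probe sets. Psma3 likewise had 2 probe sets. The brighter read 5377, 6638, 5559 and 6393 units in the transgenic arrays, against 5547, 6768, 4684 and 6605 units in the wild-type arrays. The dimmer read 2606, 2816, 1381 and 1694 units in the transgenic arrays, against 2806, 3156, 1415 and 2959.7 units in the wild-type arrays. In the dimmer one the 3 arrays that share the control profile were the lowest, which the brighter one showed only for the CF-1 wild-type ovary. Psma7, another alpha subunit, read 3319, 3964, 4269 and 4649 units in the transgenic arrays, against 3493, 4128, 3915 and 5888 units in the wild-type arrays. The remaining alpha subunits, Psma2, Psma5 and Psma6, had highest over lowest arrays of 1.70-fold, 1.70-fold and 1.68-fold, and Psma2 was highest in the CF-1 tumour on both its probe sets.

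In the beta ring 2 of the 3 constitutive catalytic subunits were measured. Psmb6, the caspase-like subunit, read 8009.98, 11245, 8745 and 6871 units in the transgenic arrays, against 9254, 10889, 7331 and 9329 units in the wild-type arrays, and 11188 units after hCG. Psmb7, the trypsin-like subunit, read 3683, 4884, 3449.8 and 4640.1 units in the transgenic arrays, against 4152, 4836, 3399 and 4294 units in the wild-type arrays, and 5357 units after hCG. Both overlapped widely between genotypes, and the log2 difference was −0.09 ± 0.18 (SE) with an adjusted p of 0.911 in limma for Psmb6 and −0.01 ± 0.14 (SE) with an adjusted p of 0.997 for Psmb7. Psmb5, the chymotrypsin-like subunit, was not analysed here. Psmb3, a structural subunit, was the one beta gene with a low p for genotype. Its brighter probe set read 9515, 12213, 14619 and 13730.2 units in the transgenic arrays, against 8749, 5774, 9895 and 9867 units in the wild-type arrays. The 2 genotypes overlapped through the CF-1 cystic ovary, and the log2 difference of 0.56 ± 0.19 (SE) had a limma p of 0.0195 and an adjusted p of 0.434. The other Psmb3 probe set read 2507, 4284, 3074 and 3863 units in the transgenic arrays, against 2520.03, 3517, 2208 and 3627 units in the wild-type arrays, with a smaller difference of 0.21 ± 0.16 (SE) (limma adjusted p = 0.721). For Psmb1 the 2 probe sets disagreed after hCG, at 1752 units on chip A, 2.70-fold the CF-1 wild-type ovary, and 9224 units on chip B, 1.39-fold the CF-1 wild-type ovary. Psmb2 and Psmb4 had highest over lowest arrays of 1.62-fold and 1.36-fold.

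**Figure D3:**
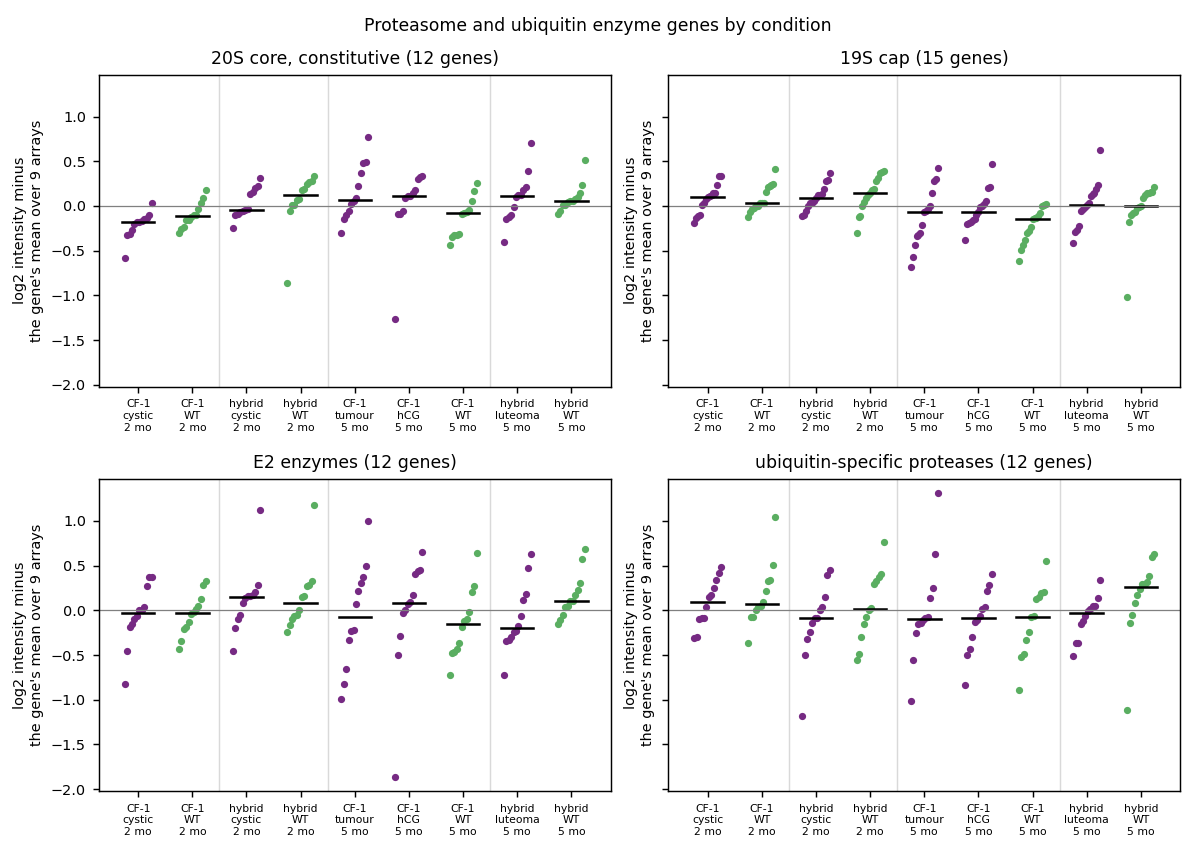
Log2 intensity of each gene minus its mean over 9 arrays, for the constitutive 20S core, the 19S cap, E2 enzymes and ubiquitin-specific proteases, with transgenic arrays in purple left of their wild types in green and black lines at the medians. Medians of the core run from −0.18 in the CF-1 cystic ovary to 0.13 in the hybrid wild-type ovary of 2 months.

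In the same tumour pair, of the 15 genes listed for the 19S cap 9 were higher and 6 lower in the CF-1 tumour, with a median of 0.13. The medians were 0.22 for 4 ATPases (4 higher) and −0.06 for 11 other genes (5 higher), among them the assembly chaperone Psmd5. Psmd3 and Psmd1, scaffold subunits of the lid and base, had differences of 0.60 and 0.56, while Psmd6, a lid subunit, and Psmd14, the deubiquitinase of the lid, had −0.33 and −0.32. Whether core and cap differ was not tested, since each pair has 1 array a side. The cap medians of the other pairs were −0.05 in the CF-1 cystic, −0.03 in the hybrid cystic, −0.05 in the hybrid luteoma and 0.17 in the hCG pair, and the luteoma median was 0.02 with median scaling.

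Of the ATPases, Psmc5 was the steadiest of all member genes. It read 4435, 4751, 5231 and 4848 units in the transgenic arrays, against 4843, 4356, 4789.8 and 4702 units in the wild-type arrays, and 4755 units after hCG, a 1.20-fold range. Psmc4 read 2308, 2392, 1881 and 1616 units in the transgenic arrays, against 2334, 2440.4, 1284 and 2088 units in the wild-type arrays. Its lowest arrays were the CF-1 wild-type ovary of 5 months and the hybrid luteoma. Psmc1 and Psmc3 had ranges of 1.43-fold and 1.51-fold. Psmc2 and Psmc6 were under the floor on all 9 arrays. Since every cell needs both ATPases, that says only that these probe sets gave no reading.

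Among the other cap subunits Psmd4, a ubiquitin receptor, read 6485, 7658, 7069.8 and 8447 units in the transgenic arrays, against 7361, 8014, 7376 and 7265 units in the wild-type arrays, a 1.30-fold range with 6891 units after hCG. Psmd2, a base scaffold, read 3157, 3046, 2916 and 2550.01 units in the transgenic arrays, against 2842, 2977, 2699 and 3329.8 units in the wild-type arrays, a 1.34-fold range. In both genes the genotypes, ages and strains overlapped. Psmd8, a lid subunit, read 3309, 3061, 3269 and 3781 units in the transgenic arrays on chip B, against 3069, 2999, 2967 and 3768 units in the wild-type arrays. Its chip A probe set read 3155, 3804, 2811 and 3741 units in the transgenic arrays, against 3469, 4469, 3163 and 3867 units in the wild-type arrays. The 2 disagreed in direction, since each transgenic array was above its own wild type on chip B and below it on chip A. Psmd1 varied more, at 1460.1, 1619, 2119 and 2429 units in the transgenic arrays, against 1835, 1458, 1441 and 780.2 units in the wild-type arrays. Its hybrid luteoma was the highest and its hybrid wild-type ovary of 5 months the lowest array, a 3.11-fold difference, and the other 6 untreated arrays overlapped. Psmd7, a lid subunit paired with Psmd14, read 4387, 4473, 2769 and 2613 units in the transgenic arrays, against 4627, 4568, 2472 and 3242 units in the wild-type arrays. All 4 untreated ovaries of 5 months lay below all 4 of 2 months, and age largely coincides with the control profile. Psmd5, an assembly chaperone of the base, read 2961, 2565, 1467 and 2295 units in the transgenic arrays, against 2311, 2432, 1747 and 2729.9 units in the wild-type arrays, and 3265 units after hCG. Its low arrays were the CF-1 tumour and the CF-1 wild-type ovary of 5 months. Psmd11, a lid subunit, had a range of 1.59-fold.

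The PA28 and PA200 activators each had their own order of arrays. Psme1 read 5651, 6924, 5484 and 6327 units in the transgenic arrays, against 6071, 7170, 6040.3 and 5590.1 units in the wild-type arrays, and 4532 units after hCG. It was not highest in the CF-1 wild-type ovary of 5 months, where the immunoproteasome subunits were. Psme2, its partner, shares its probe set with another symbol and was left out. Psme3, the nuclear PA28 gamma, read 902, 1069, 926 and 842 units in the transgenic arrays, against 328, 595, 906 and 404 units in the wild-type arrays, and 413 units after hCG. The transgenic arrays lay within 842 to 1069 units and the wild-type arrays reached from 328 to 906 units, so that the genotypes overlapped through the CF-1 wild-type ovary of 5 months. The log2 difference of 0.85 ± 0.32 (SE) had a limma p of 0.0335 and an adjusted p of 0.470. It was 0.55 without the CF-1 wild-type arrays of 2 months, 0.645 without the hybrid wild-type arrays of 5 months (unadjusted p = 0.109 and 0.114, adjusted p = 0.875 and 0.724 in limma) and 1.20 without the CF-1 wild-type arrays of 5 months. A second Psme3 probe set was under the floor on all 9 arrays. Psme4, the PA200 cap, read 2427, 2815, 1308 and 2005 units in the transgenic arrays, against 3222, 2618, 1659 and 2259 units in the wild-type arrays, and 3143 units after hCG. The CF-1 tumour and the CF-1 wild-type ovary of 5 months were its low arrays.

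Uba7, the E1 enzyme for the ubiquitin-like modifier ISG15, was the member with the lowest p for genotype. It read 525, 547, 554 and 433 units in the transgenic arrays, against 1074, 796, 832 and 738 units in the wild-type arrays, and 705 units after hCG. All 4 untreated transgenic ovaries lay below all 4 wild-type ovaries, with means of 515 ± 55.8 and 860.2 ± 148 units in transgenic and wild-type ovaries (SD, n = 4 conditions each). The log2 difference of −0.73 ± 0.16 (SE) had a limma p of 0.00198 and an adjusted p of 0.226. The block on strain and age pairs gave an adjusted p of 0.296 in limma, and leaving out any 1 array left the difference at −0.79 to −0.65. A second probe set for the same transcript was under the floor on 6 of 9 arrays and reached the detection limit only in the CF-1 tumour (441 units) and the hybrid wild-type ovary of 2 months (478 units), so it gave no second reading of this order. A list of epithelium and oviduct markers was read in the same ovaries. Of its 10 tested genes 7 had an unadjusted p under 0.05 for genotype, all 7 lower in transgenic ovaries (against 5.34% of all probe sets lower), with a list median of −1.22, among them Krt8, a keratin, and Cdh1, E-cadherin, with log2 differences of −1.46 and −1.45. Other lists held genes lower at that p too: 2 of 7 lymphocyte, 2 of 14 macrophage and class II and 1 of 8 luteal genes. So did 1 of 16 interferon and class I genes, Ifit3, at −0.63, and none was higher in these lists. Of 16 immediate early and heat shock genes 5 were lower and 2 higher. The part of any of these cell types or states in the Uba7 level was not tested. Genes that work with Uba7 were read beside it. Ube2l6, the E2 enzyme for ISG15, read 1546, 2139.6, 1115 and 2439.8 units in the transgenic arrays, against 1710.4, 1568, 1643 and 2176 units in the wild-type arrays. Usp18, the protease that removes ISG15, read 408, 306, 303 and 280.5 units in the transgenic arrays, against 747, 468, 305 and 347 units in the wild-type arrays. Ube2l6 overlapped widely. Each transgenic array of Usp18 was below its own wild type, although the genotypes overlapped, with a log2 difference of −0.45 ± 0.21 (SE) (limma adjusted p = 0.556). Most of these Usp18 readings lay under the detection limit of 368 units, and the CF-1 pair of 5 months read 303 against 305 units. The only other E1 member, the Y-linked Uba1y, was under the floor on all 9 arrays.

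Of 14 genes for E2 enzymes 12 were tested, and Ube2o and Ube2t were too dim. Ube2s, which extends chains for the anaphase-promoting complex, had the widest range of all members. It read 2242, 2789.9, 4992 and 2198 units in the transgenic arrays, against 2576, 2791, 3895 and 2803 units in the wild-type arrays, and 685 units after hCG. The hCG-treated ovary stood far below the other 8, 5.68-fold below the CF-1 wild-type ovary of its age and 7.28-fold below the CF-1 tumour. Ube2c, which starts those chains, read 380.5, 1458, 866 and 407 units in the transgenic arrays, against 588, 841, 482 and 1075 units in the wild-type arrays, and 552 units after hCG. Its highest array was the hybrid cystic ovary and its lowest the CF-1 cystic ovary, so the same label went with opposite ends. The 19 tested proliferation genes summed to 25788, 24961, 24718 and 18244 units in the transgenic arrays, against 26023, 26157, 16425 and 26238 units in the wild-type arrays, and 14387 units after hCG. The hCG-treated ovary was the lowest there as for Ube2s, and the part of dividing cells in either E2 level was not tested.

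Ube2v2 is a catalytically inactive E2 variant that helps build K63 chains. It read 347, 551, 269 and 376 units in the transgenic arrays, against 377, 1075, 354 and 709 units in the wild-type arrays, and 646 units after hCG. Each transgenic array was below its own wild type and each hybrid above the CF-1 array of the same genotype and age. The untreated CF-1 readings lay near or under the detection limit of 368 units. The genotype log2 difference of −0.60 ± 0.20 (SE) had a limma p of 0.0195 and an adjusted p of 0.434. For strain, hybrid minus CF-1, it was 0.92 ± 0.20 (SE) (limma adjusted p = 0.383). Ube2l3, a partner of HECT and RBR ligases, had 2 probe sets that disagreed. The dimmer read 711, 518, 881 and 858 units in the transgenic arrays, against 749.9, 686, 1375 and 1055 units in the wild-type arrays, and 611 units after hCG, with the 4 ovaries of 5 months above the 4 of 2 months. The brighter read 5049, 3769, 4086 and 3284 units in the transgenic arrays, against 3373, 3756, 3431 and 4552 units in the wild-type arrays, with no such order. Ube2d3, a broadly used E2, read 1019, 954, 1351 and 1235 units in the transgenic arrays, against 805, 924, 1259 and 1168 units in the wild-type arrays, and its 5-month ovaries were likewise above its 2-month ones. Ube2d2a, its close relative, read 934, 850.5, 660.4 and 615 units in the transgenic arrays, 781, 857, 469 and 792 units in the wild-type arrays and 1215 units after hCG. That last array was its highest, 2.59-fold the CF-1 wild-type ovary of 5 months.

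Ube2r2, a partner of SCF ligases, was the other member whose genotypes did not overlap. It read 7201, 7593, 10091 and 7786 units in the transgenic arrays, against 7099, 6856, 7079 and 6648 units in the wild-type arrays, and 5075 units after hCG. The gap between the genotypes was narrow, and the log2 difference was 0.23 ± 0.16 (SE) with an adjusted p of 0.705 in limma. Ube2e1 was lowest in the CF-1 tumour at 813 units, 2.41-fold below the CF-1 wild-type ovary at 1957 units. Ube2e3, its relative, was among the steadiest on chip B at 1482, 1241, 1491 and 1234 units in the transgenic arrays, against 1422, 1257, 1328 and 1240.2 units in the wild-type arrays. The rest of the E2 genes, Ube2b and Ube2h, had ranges of 1.41-fold and 1.78-fold.

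Of 17 genes for ubiquitin-specific proteases 12 were tested. Usp5, which recycles free ubiquitin chains, read 1298, 948, 1431 and 1176 units in the transgenic arrays, against 928, 754, 643 and 1046 units in the wild-type arrays, and 519.5 units after hCG. Each untreated transgenic array was above its own wild type, although the genotypes overlapped, and the log2 difference of 0.53 ± 0.22 (SE) had a limma p of 0.0466 and an adjusted p of 0.490. It was 0.31 without the CF-1 wild-type arrays of 5 months (unadjusted p = 0.125, adjusted p = 0.572 in limma) and 0.70 without the hybrid ones. The hCG-treated transgenic ovary was instead the lowest array. Usp33, known for deubiquitinating the adrenergic receptor and the centrosome protein CP110, had 2 probe sets of opposite sign. One read 691, 662, 958 and 836 units in the transgenic arrays, against 669, 395, 538 and 456 units in the wild-type arrays, and its log2 difference of 0.63 ± 0.19 (SE) had a limma p of 0.0123 and an adjusted p of 0.391. The other, brighter, read 1779.6, 1638, 859.5 and 1656 units in the transgenic arrays, against 2022, 1644, 1982 and 2261 units in the wild-type arrays, with a difference of −0.46 ± 0.26 (SE) (limma adjusted p = 0.634). No direction for Usp33 can be given from the pair. Usp21, a histone H2A deubiquitinase, read 566, 567, 1492 and 623 units in the transgenic arrays, against 466, 539, 884 and 277 units in the wild-type arrays. The CF-1 tumour was its highest and the hybrid wild-type ovary of 5 months its lowest array, 5.38-fold apart. Usp10, which stabilises p53, read 383, 617, 441 and 364 units in the transgenic arrays, against 447, 798, 253 and 724 units in the wild-type arrays, with the CF-1 wild-type ovary of 5 months lowest.

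Usp24 was low in the hybrid cystic ovary, at 225 units against 626 units in the hybrid wild-type ovary of 2 months, while the other 7 arrays lay at 459 to 681 units. Usp9x, a large X-linked protease, gave opposite readings of the luteoma pair: on the dimmer probe set the luteoma had 247 units and the hybrid wild-type ovary 537 units, on the brighter 2816 and 2726 units. Usp14, which sits on the 19S cap and trims chains there, read 1575, 1257, 849 and 1128 units in the transgenic arrays, against 1582, 1567, 889 and 1561 units in the wild-type arrays. It overlapped between genotypes, as did Usp4, Usp7, Usp19 and Usp39, whose ranges ran from 1.35-fold to 2.22-fold. Usp15, Usp17la, Usp25, Usp29 and Usp42 were not tested for lack of signal.

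**Figure D4:**
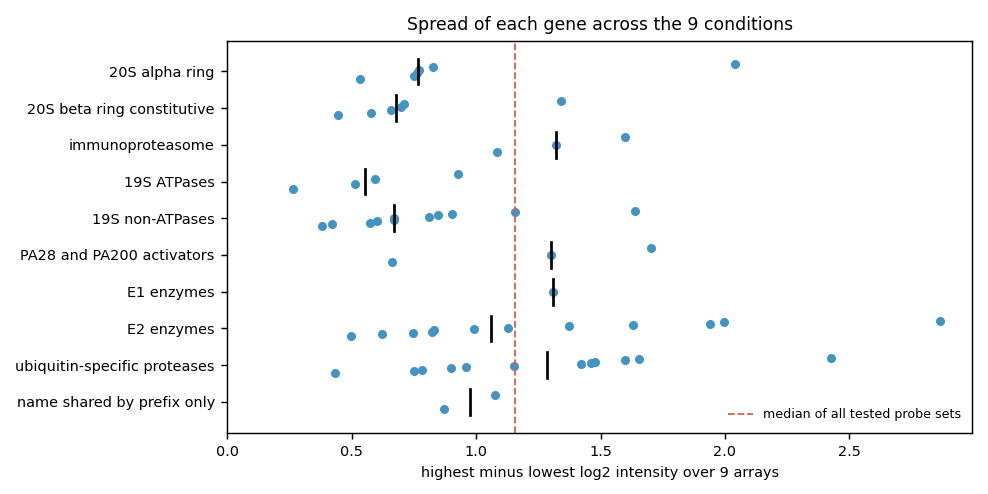
Highest minus lowest log2 intensity over 9 arrays for each tested gene at its brightest probe set, by role, with black lines at the role medians and a dashed line at the median of all 6408 tested probe sets. Medians of the constitutive 20S rings and the 19S groups lie left of the dashed line, at 0.55 to 0.77.

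Across conditions the constitutive proteasome spread less than most probe sets. The median highest over lowest ratio was 1.66-fold for 12 genes of the core and 1.59-fold for 15 genes of the cap, against 2.09-fold for 12 E2 enzymes, 2.44-fold for 12 proteases of the Usp family and 2.23-fold for all tested probe sets. The gap to all probe sets was narrower among brighter features. At the detection limit on all 9 arrays the medians were 1.66-fold for the core, 1.59-fold for the cap, 1.99-fold for 11 E2 enzymes, 1.90-fold for 8 Usp genes and 1.96-fold for all 4236 probe sets. On chip A levels within the whole core and the whole cap were loosely tied. Over its 9 arrays the median correlation between 2 genes was 0.21 in the core (30 of 45 pairs positive) and 0.22 in the cap (35 of 55). It was 0.02 over all 50 member genes and 0.00 over all 4122 tested probe sets, with all pairs sharing the same 9 arrays and their scaling. The tie did not hold throughout. On chip A the beta ring had 0.05 (5 of 10 pairs positive) and 8 cap genes other than ATPases −0.04 (13 of 28). On chip B 4 cap genes had −0.09 (2 of 6). The CF-1 tumour was the highest array for 14 of 60 member genes (23.3%) and the lowest for 12 (20%), against 21.0% and 20.6% of all tested probe sets. The CF-1 wild-type ovary of 5 months was the lowest array for 14 of 60 member genes (23.3%), against 9.78% of all tested probe sets, and the highest for 4 (6.67%), against 9.18%. The CF-1 cystic ovary was the lowest array for 9 of 60 member genes (15%), against 10.05%. For the core alone the CF-1 cystic ovary was lowest for 5 of 12 genes and the CF-1 wild-type ovary of 5 months for 4 of 12.

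For genotype, the question was which members differ between LH-hypersecreting and wild-type ovaries across both strains and ages. None of the 77 tested members passed an adjusted p of 0.05 in limma, and none of all 6408 probe sets did (0%), while limma-trend with robust variances called 8 of them, no member among these. At an unadjusted p under 0.05 there were 6 members (7.79%), against 10.02% of all probe sets, with 4 higher (against 4.68%) and 2 lower (against 5.34%) in transgenic ovaries, and 2 members did not overlap between genotypes (2.60%), against 4.15%. Both shares are below those of all probe sets here, but the order of the first depends on the setting. Without the filter on low values it was 7.61% of members, against 5.61% of all probe sets. Without the hybrid wild-type arrays of 2 months it was 10.4%, against 8.24%. The 6 members of the main fit were Uba7 and Ube2v2, lower, and Psmb3, Psme3, Usp5 and 1 probe set of Usp33, higher. The next by p, Psmb8 on chip B, Ube2l3, Usp18 and Psma4, had log2 differences of −0.50, −0.36, −0.45 and 0.32. Over 60 genes the median difference was −0.03, against 0.00 for all probe sets. Without the hybrid cystic arrays 3 members had an unadjusted p under 0.05 (3.90%), against 5.98% of all probe sets.

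**Figure D5:**
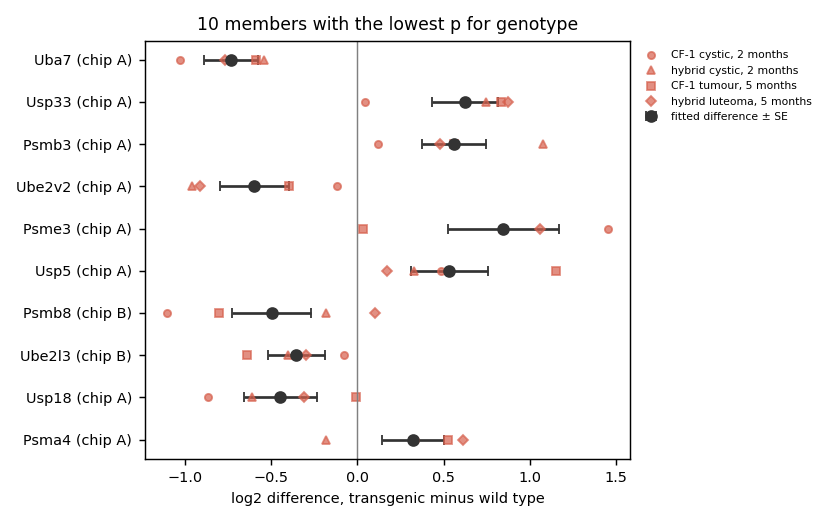
Log2 differences, transgenic minus wild type, for the 10 members with the lowest limma p, as the fitted value with its SE (black) and the 4 single pairs (red symbols). Uba7, Ube2v2, Ube2l3 and Usp18 lie left of 0 in all 4 pairs, and Usp33, Psmb3, Psme3 and Usp5 right of it. Most Usp18 readings and the untreated CF-1 readings of Ube2v2 are near or under the detection limit. The adjusted p of the 10 members ranges from 0.226 to 0.622 in limma.

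For age, 5 months against 2 months, no member passed an adjusted p of 0.05 in limma, and 1 of 6408 probe sets did (0.0156%). At an unadjusted p under 0.05 there were 11 members (14.3%), against 19.5% of all probe sets, with 4 higher (against 9.63%) and 7 lower (against 9.91%) at 5 months. Psmd7 had the lowest p. It read 2769, 2613, 2472 and 3242 units in the CF-1 tumour, hybrid luteoma, CF-1 wild-type and hybrid wild-type ovaries of 5 months, against 4387, 4473, 4627 and 4568 units in the corresponding ovaries of 2 months, which is a log2 difference of −0.71 ± 0.15 (SE) (limma adjusted p = 0.133). Psmd12 on its dimmer probe set differed by −0.79 ± 0.20 (SE) (limma adjusted p = 0.155), and its brighter probe set by −0.12 ± 0.16 (SE) (limma adjusted p = 0.680). For Psme4 the difference was −0.64 ± 0.19 (SE) (limma adjusted p = 0.173), for the dimmer Psma3 probe set −0.68 ± 0.20 (SE) (limma adjusted p = 0.173), for Psmc4 −0.49 ± 0.19 (SE) (limma adjusted p = 0.227), for Usp18 −0.57 ± 0.21 (SE) (limma adjusted p = 0.220) and for Ube2d2a −0.45 ± 0.19 (SE) (limma adjusted p = 0.252). Higher at 5 months were Psmb8 on chip B, given above, the dimmer Ube2l3 probe set by 0.63 ± 0.17 (SE) (limma adjusted p = 0.156), Psma4 by 0.60 ± 0.18 (SE) (limma adjusted p = 0.173) and Ube2d3 by 0.44 ± 0.15 (SE) (limma adjusted p = 0.196).

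Age and the control profile largely coincide, since 3 of the 4 ovaries of 5 months carry the profile and none of 2 months does. With a term for the profile, in which age rests on the hybrid wild-type array of 5 months alone, 1 member had an unadjusted p under 0.05 (1.30%), against 5.12% of all probe sets, and the difference of Psmd7 was −0.47 and that of Psma3 −0.08. Without the hybrid wild-type arrays of 5 months, the only untreated ones of that age outside the profile, 254 probe sets passed an adjusted p of 0.05, 1 member among them (Psma3, −0.88, adjusted p = 0.0467 in limma), and 18 members had an unadjusted p under 0.05 (23.4%), against 26.3% of all probe sets. Without the CF-1 wild-type arrays of 5 months 6 members did (7.79%), against 13.5%, and without the CF-1 cystic arrays 7 (9.09%), against 11.1%. Age and the profile cannot be told apart in the other arrays. That includes Psmd7, Ube2d3 and the dimmer Ube2l3 probe set, whose untreated ovaries of 5 and 2 months did not overlap. The share of all probe sets without overlap by age was not counted.

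For strain, hybrid against CF-1, no member passed an adjusted p of 0.05 in limma, and 2 of 6408 probe sets did (0.0312%). At an unadjusted p under 0.05 there were 5 members (6.49%), all higher in hybrids, against 7.88% of all probe sets and 4.32% higher. They were Ube2v2, given above, Psmb3 on its dimmer probe set by 0.57 ± 0.16 (SE) (limma adjusted p = 0.464), Usp10 by 0.69 ± 0.28 (SE) (limma adjusted p = 0.624), Psmb7 by 0.35 ± 0.14 (SE) (limma adjusted p = 0.624) and Psmd8 on chip A by 0.33 ± 0.14 (SE) (limma adjusted p = 0.629). Next came both Psma3 probe sets, Psmd6, Psma7 and Ube2l6, with differences of 0.30 to 0.47. Psmb7 read 4884, 4640, 4836 and 4294 units in the hybrid cystic, luteoma and wild-type ovaries of 2 and 5 months, against 3683, 3450, 4152 and 3399 units in the CF-1 cystic, tumour and wild-type ovaries of 2 and 5 months. No hybrid array fell under any untreated CF-1 array, but the hCG-treated CF-1 array, given above, was higher than every hybrid array. The share of all probe sets without overlap by strain was not counted. Leaving out the hybrid cystic arrays, the hybrid wild-type arrays of 5 months or the CF-1 wild-type arrays of either age each left 2 members with an unadjusted p under 0.05 (2.60%), against 5.12% to 6.82% of all probe sets.

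Whether the genotype difference itself changed with age or strain was fitted too. With age, no probe set passed an adjusted p of 0.05 and 2 members had an unadjusted p under 0.05, Psmd1 (log2 difference of differences 1.19) and the second Uba7 probe set, against 2.76% of all probe sets. With strain no probe set passed either, and the 2 members at that p were Psmb8 on chip B (0.91) and the dimmer Usp9x probe set (−1.06), against 5.43% of all probe sets. These fits had 3 residual degrees of freedom.

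In single pairs a member was counted past 2-fold where its brighter side reached the detection limit. In the CF-1 cystic pair 3 members were past 2-fold (3.90%), against 5.74% of all probe sets: Psme3 was 2.75-fold higher, and Psmb8 on chip B and Uba7 were 2.15-fold and 2.05-fold lower. In the hybrid cystic pair 4 were (5.19%), against 8.79%: Psmb3 was 2.12-fold higher, Usp24 2.79-fold and Psmb10 2.34-fold lower, and the second Uba7 probe set was lower with its transgenic side under the floor. None of these was past 2-fold in both cystic pairs on the same probe set. In the CF-1 tumour pair 5 were (6.49%), against 12.1%: Usp5 was 2.22-fold and Psme3ip1 2.11-fold higher, Ube2e1 2.41-fold and the brighter Usp33 probe set 2.31-fold lower, and the second Uba7 probe set higher with its wild-type side under the floor.

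The hybrid luteoma pair had 6 members past 2-fold (7.79%), against 14.8% of all probe sets. Only the luteoma of this pair carries the control profile, and only the wild type of the hCG pair. Condition and profile cannot be told apart in either. Psmd1 was 3.11-fold, Psmb10 2.46-fold, Usp21 2.25-fold and Psme3 2.08-fold higher in the luteoma, and Ube2c was 2.64-fold and the dimmer Usp9x probe set 2.17-fold lower. The hybrid wild-type ovary of 5 months was the lowest of all 9 arrays for Psmd1, Usp21 and Psmb10. Its actin 3′ over 5′ ratio on chip A, a measure of RNA quality, was 1.497, against 2.17 to 2.78 on the other 8 arrays. On chip B it was 1.749, next to 1.728 in the luteoma and 2.09 to 2.97 on the other 7 arrays, and its part in these differences was not tested. With hCG 7 were past 2-fold (9.09%), against 14.4%: Psmb1 on its dimmer probe set and Ube2d2a were 2.70-fold and 2.59-fold higher, and Ube2s, Psma4, Psmb8 on chip A, Ube2l3 on its dimmer probe set and Psme3 were 5.68-fold, 2.86-fold, 2.31-fold, 2.25-fold and 2.20-fold lower. In all 5 pairs the share of members past 2-fold was below that of all probe sets.

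Other genes of the pathway, outside the members, gave no call in any list. Of 14 tested genes for proteasome assembly and substrate shuttling, 2 had an unadjusted p under 0.05 for genotype, both higher in transgenic ovaries, against 10.02% of all probe sets in either direction and 4.68% higher. They were Nfe2l2, an NRF transcription factor that drives stress-induced proteasome genes, with a log2 difference of 0.57, and Bag6, a chaperone for membrane proteins, with 0.41. Nfe2l1, the factor known to restore proteasome genes after inhibition, had 0.31. Among 26 tested ubiquitin ligase genes 1 was higher and none lower at that threshold: Cbl, which marks receptor tyrosine kinases for uptake, with a log2 difference of 0.87. Its size rests on the floor, since 3 wild-type arrays lay under it, at 169, 289 and 150 units. The CF-1 wild-type ovary of 5 months read 793 units, within the 495 to 948 units of the untreated transgenic arrays. Among 6 ubiquitin and ubiquitin-like precursor genes and 6 other deubiquitinase genes none had such a p. Genotype medians of the ligase, precursor and other deubiquitinase lists were −0.06, 0.03 and 0.09, against 0.00 for assembly and shuttling.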

How the data were processed

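Whole ovaries were measured on 2 Affymetrix chip types, with 1 array of each for 9 conditions. The authors deposited linear intensities per probe set, with 13.6% to 30.1% of values below 0 on an array and no common level between arrays. The software and background step behind them are not given in the sources used here. Each array was scaled within its chip type to a common trimmed mean (percentiles 2 to 98), raised to a floor of 184 (chip A) or 291 units (chip B) and put on the log2 scale. For each array the 25th percentile and the size of the 5th percentile were taken, and the floor was the median of the larger value. The detection limit was 2 floors, and 2 of 9 arrays had to reach it, which left 4122 and 2286 probe sets. 76 probe sets per chip type, controls and probe sets present on both chip types, were left out.

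Genotype, age and strain were fitted additively on the 8 untreated conditions with limma 3.58.1 in R 4.3.3, with 4 residual degrees of freedom and Benjamini-Hochberg adjustment over both chip types. The hCG condition and all single pairs have 1 array a side and no test. With 1 array per condition and chip type, the number of arrays limits the precision. On simulated data for genotype over 6408 probe sets the fit recovered 61.2%, 91% and 92.4% of changes of 1, 2 and 3 on the log2 scale, with 7 false calls. The simulated noise was independent and drawn around each probe set's mean, with no strain or age differences. These shares therefore do not tell which changes would have been called in the real arrays, where no probe set passed for genotype.

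Genes were named from the platform annotation: 5560 probe sets of chip A and 2001 of chip B had 1 symbol, while 197 and 27 carried several and 827 and 4567 carried no symbol. A gene is described by its probe set with the highest mean unless another is stated. 12 members are family probe sets, which may read related genes too. Named in the text were the immunoproteasome and catalytic subunits, the members with the 10 lowest p for each factor, the 5 largest differences of each pair on either side, the 5 widest and 5 narrowest ranges and the member of highest mean in each role. Other members were given by counts, ranges or a short remark, and were chosen after their values were seen. The members and gene lists were chosen with earlier results of these data known.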

Additional observations from a re-analysis of the deposited data

Results flagged for a closer look

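In 106 groups of 4 arrays (a named and tested probe set in the untreated transgenic or the wild-type ovaries), 10 had 1 array far from the other 3. For probe sets picked without regard to their values, chance would give about 1 in 20, or 5.3. Many of these were named for large differences in the same arrays, and the 4 arrays of a group differ in age and strain. The 10 can therefore not be weighed against that share. The CF-1 wild-type ovary of 5 months was the lone array for 4 of the 10. Psmb8 on chip A read 2019 units there, against 1058 to 1123 units in the other wild-type ovaries. The dimmer Psma3 probe set read 1415 units, against 2806 to 3156 units, Ube2d2a 469 units, against 781 to 857 units, and Psmc3ip, a meiotic recombination gene, 528 units, against 726 to 761 units. Psmb8 was thus high and the other 3 low in that ovary.

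The CF-1 tumour was the lone transgenic array for 3. Its dimmer Psmd6 probe set read 1295 units, against 2018 to 2125 units in the other transgenic ovaries, and its brighter Usp33 probe set 859.5 units, against 1638 to 1779.6 units. Usp21 read 1492 units in the tumour, against 566 to 623 units. In the hybrid wild-type ovaries Psmd8 on chip B read 3768 units at 5 months, against 2967 to 3069 units in the other wild-type ovaries, and Psmd4 read 8014.5 units at 2 months, against 7265 to 7376 units. The second Uba7 probe set read 478 units in the hybrid wild-type ovary of 2 months, while the other 3 wild-type arrays were below 0 and were set to the same floor.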

How the results depend on the processing

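With 1 array per condition, no condition has a spread of its own, and the fit assumes that genotype, age and strain add up. No member passed an adjusted p of 0.05 for genotype, age or strain in limma under any scaling, floor, filter, variance or profile alternative. The 6 members at an unadjusted p under 0.05 for genotype were 3 among probe sets detected on all 9 arrays, and 8 of all probe sets passed for genotype with limma-trend and robust variances, where the cause was not tested. For age, the 1 probe set past the threshold became 0 when detected on all 9 arrays was asked, with the floor doubled or halved, with limma-trend and with the control profile term, and 3 without a filter, and the 11 members became 1 with the profile term. For strain, the 2 probe sets past the threshold became 0 when detected on all 9 arrays was asked, with the floor doubled and with the profile term, 1 with the floor halved or limma-trend, and 6 without a filter. The 5 strain members became 3 with the floor halved, 8 with limma-trend, 9 without a filter and 2 with the profile term. Without a filter that was 9.78% of members, against 4.59% of all probe sets. The shares without a filter were 7.61%, against 5.61%, for genotype and 15.2%, against 10.2%, for age. The profile term was chosen after seeing the data. Members past 2-fold came to 10 in the luteoma pair with the floor halved, against 6, and 2 in the hybrid cystic pair with the floor doubled, against 4.

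Leaving out 1 array of each chip type at a time gave, for genotype, 0 to 7 probe sets past the threshold (7 without the CF-1 tumour), no member (0 to 0), 3 to 8 members at an unadjusted p under 0.05 and a member median of −0.0504 to 0.0015. For age the ranges were 0 to 254 probe sets, 0 to 1 members, 6 to 18 members unadjusted and −0.0929 to −0.0108, and for strain 0 to 1, 0 to 0, 2 to 5 and 0.0113 to 0.1046. With the strain and age pair as a block, 0 probe sets passed for genotype and 7 members had an unadjusted p under 0.05. The labels give no replicate numbers, and the pair is that of condition labels. Of 200 recomputed role medians 3 took the other sign. Probe sets near the floor set a limit: 15 of 92 members gave no tested reading.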
